A study of Arabidopsis thaliana with 27 samples.

Results

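Among 27 single-color NimbleGen expression arrays of Arabidopsis thaliana seedlings, 6 arrays formed 2 sets of 3 that resembled each other across their labels. Some arrays in neither set also resembled a different label more than their own. The iron-high set held gox2 Cd 24 h replicate 3 and s35S Cd 30 min replicates 1 and 3. The iron-low set held gox2 Cd 24 h replicate 2, s35S Cd 30 min replicate 2 and s35S Cd 24 h replicate 2. The sets were chosen from the measured values, as the arrays whose quantile-normalized log2 intensities over all features correlated best within a set. Every difference between them is therefore given as a description with no test. Their names refer to transcripts of iron acquisition, since iron itself was not measured.

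The series compared wild type (WT) with gox2, a line mutated in the peroxisomal glycolate oxidase GOX2, and s35S, a line that overexpresses GOX2 from a viral promoter active in most cells. All were ecotype Col-0, and each was labelled as a control without Cd or as treated with 100 μM Cd for 0.5 or 24 h, with 3 arrays per label. The controls of the mutant are labelled atgox, with no gene number. The tissue label reads leaves, whereas the protocols describe whole seedlings grown on solid MS medium, with each replicate a pool of several plants. The number of clones behind each line is not given in the sources used here.

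GOX2, the gene that the lines were built to change, followed some labels and not others. On the iron-high arrays its log2 intensity was 13.71, 13.72 and 13.88, against 13.87, 14.05 and 14.01 on the iron-low arrays, so the sets overlapped. Both arrays labelled gox2 Cd 24 h within the sets thus stood at the level of the WT control arrays, which averaged 13.73 ± 0.04 (SD, n = 3). Low values were found under the mutant label gox2 Cd 30 min, at 9.79 to 10.04. They were found as well under s35S control, at 9.60 to 9.79, and under WT Cd 30 min, at 10.03 to 10.45. The highest values, 14.35 and 14.28, were those of s35S Cd 24 h replicates 1 and 3, labelled as the overexpressing line. The mutant's own controls, labelled atgox, were high at 14.02 to 14.21, as was gox2 Cd 24 h replicate 1 at 14.08. Whether array labels were exchanged was not tested. GOX2 is closely similar in sequence to its neighbor GOX1, and how far the probes tell them apart was not tested. Groups are therefore called by their labels throughout, and a direction drawn from the labels s35S control, gox2 Cd 30 min or WT Cd 30 min is not a direction of the genotype.

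Iron enters Arabidopsis mainly through the root epidermis, where the reductase FRO2 converts ferric to ferrous iron and the transporter IRT1 imports it. The basic helix-loop-helix factor FIT, paired with BHLH38, BHLH39, BHLH100 or BHLH101, switches on both genes under iron deficiency, and secreted coumarins help to mobilize iron outside the root. Glutathione S-transferases conjugate reactive and xenobiotic compounds to glutathione. Jasmonic acid (JA), partly made in peroxisomes, releases the factor MYC2 from JAZ repressors, whose genes are themselves induced by the hormone.

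After the mean of each feature over the 27 arrays was subtracted, the 3 pairs within the iron-high set correlated at r = 0.725 to 0.772 and the 3 pairs within the iron-low set at r = 0.722 to 0.801. All 9 pairs between the sets were negatively correlated, at r = -0.477 to -0.344. The highest correlation of any of these 6 arrays with an array outside its set was 0.567, below the lowest value inside a set. The array gox2 Cd 24 h replicate 3 correlated with the 2 other arrays of its label at r = -0.472 and 0.045. The array s35S Cd 30 min replicate 2 correlated with its own label at r = -0.372 and -0.344. Such crossing was not limited to the sets, since the nearest neighbor of 8 of the 27 arrays had a different label. Among arrays in neither set, gox2 Cd 24 h replicate 1 correlated with atgox control replicates 2 and 3 at r = 0.702 and 0.691. For atgox control replicate 1, r was 0.684 and 0.724 with s35S Cd 24 h replicates 1 and 3. With its own label it was 0.297 and 0.216. Outside their sets, the iron-high arrays were nearest to WT control (r = 0.244 to 0.434), whereas the iron-low arrays were nearest to WT Cd 24 h (r = 0.242 to 0.567) and to the arrays labelled gox2 Cd 30 min (r = 0.208 to 0.467).

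**Figure D1:**
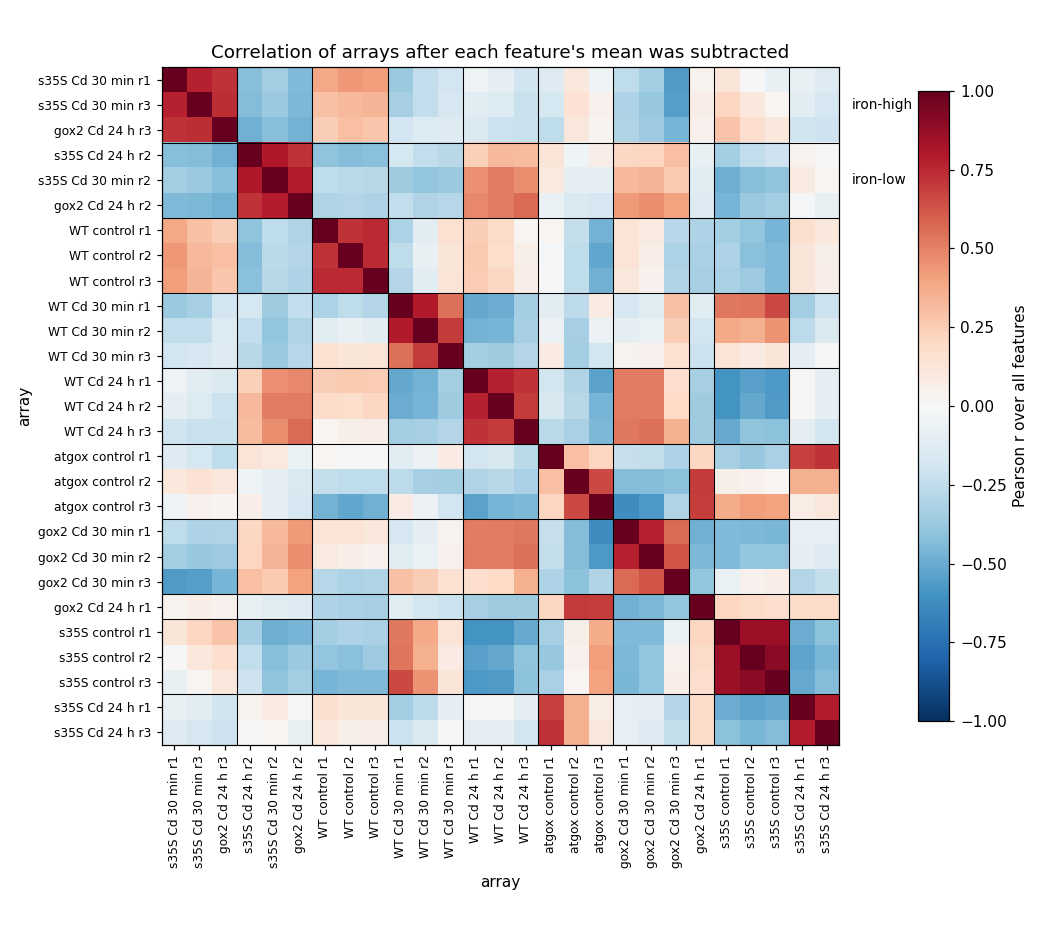
Pearson correlation between the 27 arrays after the mean of each feature was subtracted (red positive, blue negative), with black lines between the sets and the labels. The iron-high and iron-low blocks stand at the upper left, with r of 0.725 to 0.772 and 0.722 to 0.801 within them and negative values between them.

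Counts of differing genes follow from the same choice of arrays, so they describe the sets and give no separate support. Arrays of different labels within the iron-high set lay 1 or more log2 units apart at 63 and 103 of 32627 loci, and the pair that shared a label at 61. In the iron-low set, where each array had a label of its own, the 3 pairs differed at 41 to 117 loci. For comparison, 18 pairs of replicates under the 6 labels outside the sets differed at 22 to 894 loci, with a median of 136. Between the sets, 2019 to 2192 loci differed in the 3 pairs that shared a label and 2094 to 2687 in the 6 pairs that did not. The median SD over loci was 0.087 in the iron-high set and 0.106 in the iron-low set, against 0.171 and 0.191 under the labels s35S Cd 30 min and gox2 Cd 24 h, which mix them. It was also wide under s35S Cd 24 h (0.159), which holds an iron-low array, and under atgox control (0.148), which holds no array of the sets. The other labels had 0.089 to 0.103.

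The array identifiers place the 3 iron-high arrays side by side on slide 3, at places 1, 2 and 3. The iron-low arrays lay at place 5 of slide 2 and at places 10 and 12 of slide 3. The part of slide and place was not tested. Within slide 3, with 2 iron-low arrays, 1223 loci were at least 1 higher on the iron-high arrays and 904 at least 1 lower.

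In the whole comparison, 8259 loci (25.3%) were higher on all 3 iron-high arrays than on any iron-low array and 8848 (27.1%) were lower, together 52.4% of loci. Of these, 1208 (3.7%) were higher by at least 1 and 872 (2.67%) lower by at least 1. The iron-high arrays stood above all 24 other arrays at 668 loci and below them at 316, whereas the iron-low arrays stood below all others at 1012 loci and above them at 795. The shares of 25.3% higher and 27.1% lower stand beside every count of list members without overlap given below.

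The root acquisition genes were among the largest differences. FRO2 had a log2 intensity of 12.84, 12.63 and 12.58 on the iron-high arrays, against 8.40, 8.34 and 8.48 on the iron-low arrays, a difference of 4.28. The iron-high arrays exceeded the WT control mean of 11.95 ± 0.30 (SD, n = 3), and the iron-low arrays lay beside the WT Cd 24 h mean of 8.60 ± 0.14. The difference was 4.27 within the label s35S Cd 30 min and 4.45 within gox2 Cd 24 h. FRO2 also read 12.67 to 12.82 under the label s35S control and 8.36 to 8.61 under gox2 Cd 30 min. IRT1, the ferrous iron transporter, averaged 13.59 ± 0.15 on the iron-high arrays, against 9.90 ± 0.09 on the iron-low arrays (SD over 3 arrays each), which lay below all other arrays (10.54 to 13.78). CYP82C4, a cytochrome P450 that hydroxylates the coumarin fraxetin, read 10.52, 10.17 and 9.99 on the iron-high arrays and 5.84, 6.16 and 5.48 on the iron-low arrays, again with no overlap.

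In the 4 genes of the BHLH38 group the sets stood at the extremes of the series, with the iron-high arrays above and the iron-low arrays below every other array of the series. BHLH38 read 11.71, 11.62 and 11.65 on the iron-high arrays, against 7.21, 7.18 and 6.90 on the iron-low arrays, whereas the other 21 arrays ranged from 8.20 to 11.07. BHLH101 differed by the same 4.56, BHLH39 by 3.53 and BHLH100 by 3.32. Their partner FIT (named FRU in the gene table) differed by 1.25, with 11.83, 11.84 and 11.83 on the iron-high arrays and 10.54, 10.54 and 10.66 on the iron-low arrays. Of the 16 iron status regulators listed, 11 were higher without overlap, 1 was lower (BHLH121, by 0.31) and 4 overlapped, among them PYE and ILR3. The list median was 0.49, beside -0.01 over all loci.

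The remaining iron genes were divided. The coumarin genes F6'H1, which encodes feruloyl-CoA 6'-hydroxylase, and ABCG37, which encodes a coumarin exporter, were lower on the iron-high arrays by 0.60 and 0.48. Of the 15 genes for iron uptake and coumarins, 11 were higher and 2 lower without overlap (median 0.52). The ferritin gene FER1, which encodes an iron storage protein, scarcely separated the sets. FER1 read 14.19, 14.23 and 14.21 on the iron-high arrays, against 14.17, 14.15 and 14.20 on the iron-low arrays, which overlapped. The vacuolar iron transporter-like genes VTL2, VTL1 and VTL5 were 1.46, 1.16 and 1.06 higher, so 3 of 9 iron storage genes passed a difference of 1. Of the 9, 2 were lower without overlap and 4 overlapped, and the lowest difference in the list was -0.43. Among 24 genes of metal transport and nicotianamine, 14 were higher and 3 lower (median 0.29), beside 25.3% and 27.1% of all loci. They included FRD3, a citrate transporter that loads iron into the xylem (1.03 higher), HMA2, a zinc-exporting pump (1.19 higher), and YSL1, a metal-nicotianamine transporter (0.96 lower).

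**Figure D2:**
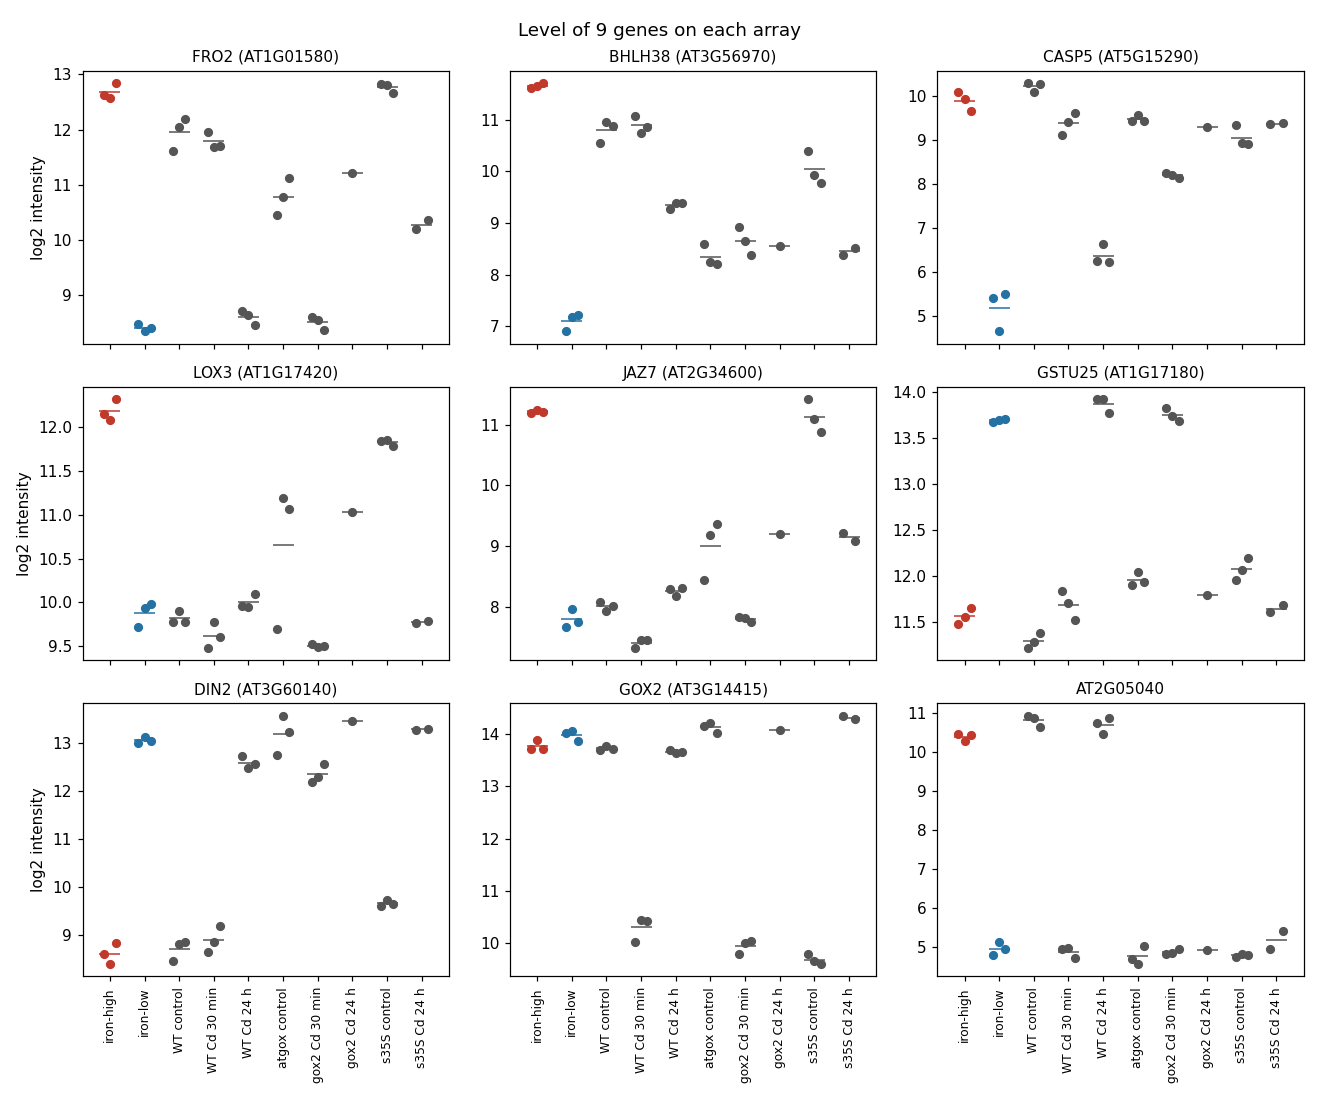
Log2 intensity of 9 genes on every array, with a point per array and a bar at the mean of each set or label (iron-high in red, iron-low in blue, the other arrays in gray, without the 6 arrays of the sets). FRO2, BHLH38 and CASP5 are high on the iron-high and low on the iron-low arrays. FRO2 is as high under s35S control and about as low under gox2 Cd 30 min and WT Cd 24 h, and CASP5 is as high on WT control. LOX3 and JAZ7 are high on the iron-high arrays and under the label s35S control. GSTU25 and DIN2 are high on the iron-low arrays and on several others (GSTU25 under WT Cd 24 h and gox2 Cd 30 min, DIN2 also under atgox control and s35S Cd 24 h), and GOX2 does not separate the sets.

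Root marker genes moved with the iron genes, and over the whole list. Of 30 root markers, 28 were higher on the iron-high arrays without overlap, 16 by at least 1 (median 1.05), and RBOHC and MYB36 overlapped. Relative to the mean of the 27 arrays, the mean log2 level of the list was 0.44 to 0.46 on the iron-high arrays, against -0.81 to -0.70 on the iron-low arrays, with 0.43 to 0.53 on WT control and -0.24 to -0.18 on WT Cd 24 h. The part of root material in the iron result was not tested. In such whole samples fewer cells of a type and less RNA per cell cannot be told apart.

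The markers did not move evenly. CASP5, which encodes a protein of the Casparian strip of the endodermis, read 9.67, 10.09 and 9.93 on the iron-high arrays, against 5.51, 4.65 and 5.42 on the iron-low arrays, below all other arrays (6.24 to 10.30). The aquaporin gene TIP2;3 differed by 3.17, CASP2 by 3.14 and TIP2;2 by 2.22. By contrast, MYB36, the factor that switches on the CASP genes, read 10.38, 10.56 and 10.42 on the iron-high arrays and 10.44, 10.55 and 10.36 on the iron-low arrays. The root hair genes EXPA7 and RSL4 differed by 0.63 and 0.31, and the auxin carrier PIN2 by 0.19. Root markers were thus present on arrays whose tissue label reads leaves, although the files hold no detection value.

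The 30 shoot and photosynthesis markers differed far less, with 15 higher and 3 lower without overlap and a median of 0.08. Over all loci 25.3% were higher and 27.1% lower. The mean relative level of the shoot list was 0.00 to 0.06 on the iron-high arrays, against -0.12 to -0.02 on the iron-low arrays. RBCS1A, a small subunit of RuBisCO, read 15.61, 15.75 and 15.70 on the iron-high arrays and 15.70, 15.72 and 15.70 on the iron-low arrays. Organelle transcripts moved with the sets too, as the genes encoded in the chloroplast genome were lower on the iron-high arrays by a median of 0.68 (82 of 87 without overlap) and those encoded in the mitochondrial genome by 0.71 (89 of 107). Their part in the other results was not tested.

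Detoxification genes ran the other way. GSTU25 read 11.65, 11.48 and 11.55 on the iron-high arrays, against 13.71, 13.70 and 13.67 on the iron-low arrays, a difference of -2.14. The iron-low arrays lay beside the WT Cd 24 h mean of 13.87 ± 0.08 and the iron-high arrays above the WT control mean of 11.29 ± 0.08 (SD, n = 3 each). GSTU3 had a larger difference of -3.39, with the iron-high arrays below and the iron-low arrays above all others. Of 40 glutathione S-transferase genes, 21 were lower and 13 higher without overlap (median -0.20), beside 27.1% and 25.3% of all loci. GSTU26 and GSTF11 were 1.48 and 1.20 higher, so members of the family went both ways.

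All but 1 of the 9 xenobiotic and electrophile response genes were lower on the iron-high arrays (median -1.58), with OPR1 overlapping. UGT74E2, a glucosyltransferase of indole-3-butyric acid, read 10.51, 10.34 and 10.31 on the iron-high arrays, against 13.87, 13.77 and 13.68 on the iron-low arrays. In the mitochondrial stress list, 8 of 9 were lower (median -0.73). AOX1A, the alternative oxidase, read 11.77, 11.80 and 11.78 on the iron-high arrays, against 13.65, 13.65 and 13.50 on the iron-low arrays, and every other array lay between them (11.89 to 13.38). NAC13, a transcription factor that acts on AOX1A, was lower by 1.77.

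The largest negative differences included DIN2, a beta-glucosidase gene induced in darkness, which read 8.84, 8.60 and 8.40 on the iron-high arrays, against 13.04, 13.13 and 13.00 on the iron-low arrays. It was as high outside the set, at 12.75 to 13.57 on atgox control without Cd and 13.27 and 13.30 on s35S Cd 24 h replicates 1 and 3. ICL, which encodes isocitrate lyase, differed by -3.74 and BGLU27, a beta-glucosidase gene, by -4.26. The loci AT1G09500, AT5G55150 and AT5G58840, which have no symbol in the gene table, differed by -4.14, -4.09 and -3.98. On the positive side stood CASP5 (4.70), AT4G36700 (4.70), AT5G46890 (4.67), AT5G46900 (4.63), XTH21 (4.54), a cell wall xyloglucan enzyme, and HMT3 (4.50), a homocysteine S-methyltransferase. HMT3 was even within the iron-high set, at 10.83, 10.81 and 10.83, against 6.48, 6.46 and 6.04 on the iron-low arrays.

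JA genes were divided by list, with the JAZ repressors mostly higher on the iron-high arrays. LOX3, a lipoxygenase of JA biosynthesis, read 12.32, 12.15 and 12.09 on the iron-high arrays, above all other arrays, against 9.98, 9.93 and 9.72 on the iron-low arrays. Here the iron-low arrays, not the iron-high ones, lay beside WT control (9.82 ± 0.07, SD, n = 3). LOX4 differed by 2.49, AOC3 by 1.20, OPCL1 by 1.18 and AOS by 0.85. In the list, 8 of 18 biosynthesis genes were higher and 3 lower without overlap (median 0.17), beside 25.3% and 27.1% of all loci. LOX2, the lipoxygenase abundant in leaves, overlapped at 15.12, 15.09 and 15.05 on the iron-high arrays and 15.15, 15.15 and 15.11 on the iron-low arrays.

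Of 13 JAZ repressor genes, 12 were higher on the iron-high arrays and 5 by at least 1 (median 0.85). JAZ7 read 11.22, 11.20 and 11.25 on the iron-high arrays, against 7.74, 7.96 and 7.67 on the iron-low arrays. JAZ8, JAZ10 and JAZ5 were 2.32, 2.19 and 1.93 higher, and only JAZ12 of this list overlapped. In the JA response list 5 of 9 were higher and 2 lower (median 0.24), with MYC2 the furthest apart at 1.19. The mean relative level of that list was 0.32 to 0.35 on the iron-high arrays, against -0.08 to -0.03 on the iron-low arrays, and 0.34 to 0.35 on WT Cd 24 h. JA catabolism was divided, with the oxidases CYP94B1, CYP94C1 and CYP94B3 2.30, 1.65 and 1.38 higher and the sulfotransferase gene ST2A at -1.40.

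Genes of rapid stress signaling followed the JA genes. RRTF1, an ethylene response factor induced by redox changes, read 12.57, 12.54 and 12.41 on the iron-high arrays, against 8.15, 8.13 and 7.94 on the iron-low arrays. Of 25 such genes, 22 were higher on the iron-high arrays and 2 lower (CML38 and NAC042), with a median of 0.86. CBF2, a factor of the cold response, differed by 2.0, ERF105 by 1.76, DREB2A by 1.59 and WRKY46 by 1.53. Of 27 heat shock genes, 19 were higher and 4 lower (median 0.53). The heat shock factor gene HSFA2 read 13.70, 13.72 and 13.68 on the iron-high arrays and 11.84, 11.86 and 11.83 on the iron-low arrays.

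Defense genes were divided. SARD1, a factor that induces salicylate synthesis, was 1.60 higher on the iron-high arrays, with EDS5, a salicylate exporter of the chloroplast, and PAD4, a regulator, each 1.16 higher. In contrast, CYP71A12, CYP71A13 and PAD3, enzymes of the camalexin and indole routes, differed by -3.21, -2.45 and -1.88. FMO1, which makes N-hydroxypipecolic acid, and PBS3, which conjugates isochorismate, differed by -1.86 and -1.63. Of the 17 genes, 7 were higher and 8 lower without overlap, beside 25.3% and 27.1% of all loci, and the median was -0.11. The ABA genes were divided too, with RD26 and NCED3 1.15 and 1.11 higher and RD20 and HAI1 at -1.98 and -1.38.

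Smaller differences were found in nutrient genes, whose counts stand beside 25.3% of all loci higher and 27.1% lower without overlap. Of 19 phosphate starvation genes, 15 were higher on the iron-high arrays and 1 lower (median 0.41), with the galactolipid synthase gene MGD3 1.06 higher. Among 18 nitrate and ammonium genes, 9 were higher and 2 lower, including the nitrogen-responsive regulator LBD37 (1.31) and the nitrate transporter NRT1.8 (-0.84). In sulfur assimilation and Cd chelation, 15 of 29 were higher and 7 lower, and BGLU28 alone passed a difference of 1 (-1.62). Of 17 clock genes, 11 were lower and 2 higher (median -0.18), and PRR9, which peaks in the morning, differed by -1.47. Photorespiration and catalase genes, to which GOX2 belongs, had a median of 0.02, with 13 of 23 overlapping and all differences between -0.55 and 0.38.

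**Figure D3:**
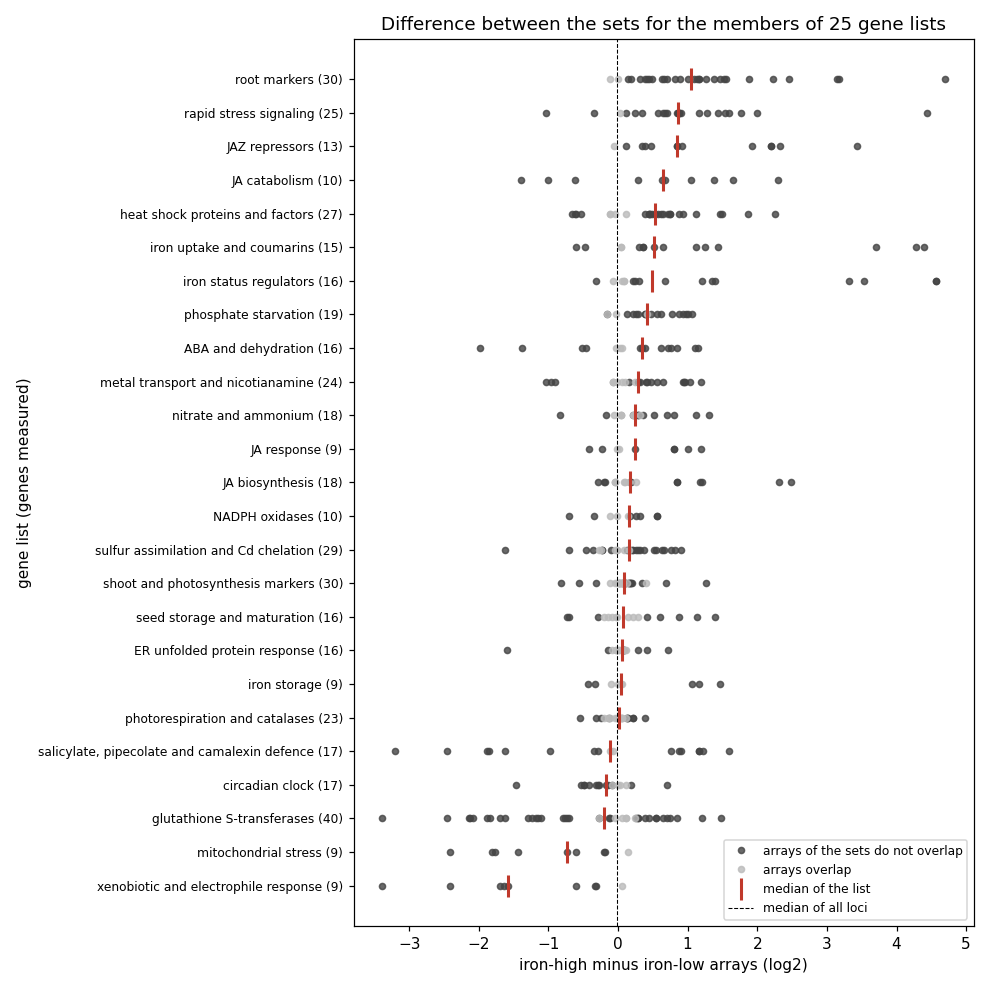
Difference between the iron-high and the iron-low arrays for each member of 25 gene lists (log2, one point per gene, dark where the arrays of the sets do not overlap), with the list median in red and the median of all loci as a dashed line at -0.01. Root markers lie furthest to the right with a median of 1.05, and xenobiotic and electrophile response genes furthest to the left with -1.58.

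To see where these genes stood outside the 6 arrays, 4 comparisons were fitted with limma over 18 arrays under 6 labels that hold none of them. Of 37118 features, 18.4% were called in WT Cd 24 h against WT control (8.02% higher, 10.3% lower). The same values were 50.1% in the arrays labelled s35S control against WT control (20.3% higher, 29.8% lower), 24% in those labelled WT Cd 30 min against WT control (11.3% and 12.7%) and 21.9% in those labelled gox2 Cd 30 min against WT Cd 30 min (11.1% and 10.8%). The first 3 share the WT control arrays, so they are given side by side and not set against each other. WT Cd 24 h, s35S control and WT control lay on slide 1, whereas WT Cd 30 min lay on slide 2, where slide and label cannot be told apart.

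In WT Cd 24 h against WT control, 787 of the 1208 loci higher on the iron-high arrays were called lower (65.1%, median log2 fold change -0.62) and 8 were called higher. Of the 872 loci lower on the iron-high arrays, 631 were called higher (72.4%, median 0.91). Against a background of 10.3% lower and 8.02% higher, the genes that were low on the iron-low arrays were thus often low after 24 h of Cd in WT. The background covers all features, dim and unchanging ones included, whereas these loci were chosen for a difference of at least 1, so the shares are not of like sets. When one mean per label was fitted over all 27 arrays, including the labels that mix the sets, an alternative chosen after seeing the data, the counts were 113 lower and 97 higher, beside 1194 features called in all. Fold changes stayed as they were in that fit (FRO2 at -3.35). Its spread came partly from labels in which these loci, by the choice of the sets, lay far apart. Calls lost in it are therefore no measure of the change in WT.

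Of the 15 genes for iron uptake and coumarins, 6 were called lower in WT Cd 24 h than in WT control, 2 higher (F6'H1 and ABCG37) and 7 were not called. Over all features 10.3% were called lower and 8.02% higher. FRO2 averaged 8.60 ± 0.14 in WT Cd 24 h and 11.95 ± 0.30 in WT control (SD, n = 3 each), a log2 fold change of -3.35 ± 0.16 (SE, limma adjusted p = 4.96e-09). The changes were -2.31 for IRT1 (10.81 ± 0.08 and 13.12 ± 0.15, limma adjusted p = 2.77e-08) and -3.86 for CYP82C4 (5.69 ± 0.20 and 9.54 ± 0.34, limma adjusted p = 4.68e-09). BHLH38 fell to 9.35 ± 0.06, against 10.80 ± 0.21 in WT control, a change of -1.45 (limma adjusted p = 2.75e-05), which left it well above the 6.90 to 7.21 of the iron-low arrays. F6'H1 and ABCG37 were also the 2 listed uptake genes that were lower on the iron-high arrays. In the fit over all 27 arrays the calls of IRT1 (limma adjusted p = 0.0984) and BHLH38 (limma adjusted p = 0.39) were lost.

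Iron storage genes had a mean relative level of 0.14 to 0.27 on the iron-high arrays, against -0.15 to -0.06 on the iron-low arrays, with -0.53 to -0.40 on WT Cd 24 h and 0.16 to 0.23 on WT control. In WT Cd 24 h against WT control 7 of the 9 were called lower, beside 10.3% of all features. These 7 included FER1 (-0.78, 13.45 ± 0.04 and 14.23 ± 0.04, limma adjusted p = 5.68e-08) and NEET, an iron-sulfur protein gene (-1.07, 10.23 ± 0.02 and 11.31 ± 0.07, limma adjusted p = 2.43e-06). VTL2 (-1.44, limma adjusted p = 1.07e-06) was among them and differed by 1.46 between the sets, whereas FER1 differed by 0.04 and NEET by -0.33.

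Of the root markers, 15 of 30 were called lower and 2 higher in WT Cd 24 h. For this and the next lists, the share over all features was 10.3% lower and 8.02% higher. CASP5 averaged 6.38 ± 0.23 in WT Cd 24 h and 10.23 ± 0.10 in WT control (SD, n = 3 each), a change of -3.85 ± 0.14 (SE, limma adjusted p = 2.19e-10, but 0.0652 in the fit over all 27 arrays). TIP2;3 fell by 2.98 (limma adjusted p = 1.83e-08). Of the glutathione S-transferase genes 24 of 40 were called higher and 8 lower, and GSTU25 rose by 2.58 ± 0.09 (SE, limma adjusted p = 1.47e-10). In the mitochondrial stress list 7 of 9 were called higher, with AOX1A at 1.34 (limma adjusted p = 7.55e-08, but 0.0595 over all 27 arrays), and in the xenobiotic list 6 of 9, with UGT74E2 at 2.92 (limma adjusted p = 2.19e-10). DIN2 (3.88), CYP71A12 (2.94), FMO1 (2.54) and PBS3 (1.93) were also called higher, of which CYP71A12 was lost over all 27 arrays (limma adjusted p = 0.0512).

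Most JAZ and rapid stress genes were not called at 24 h, while 3 of 9 JA response genes were called higher. LOX3 lay at 9.95 to 10.09 in WT Cd 24 h and at 9.78 to 9.90 in WT control (3 arrays each), a change of 0.18 ± 0.26 (SE, limma adjusted p = 0.703). JAZ7 had a change of 0.25 (limma adjusted p = 0.379) and RRTF1 of -0.07 (limma adjusted p = 0.943). Of the 13 JAZ genes only JAZ4 was called, with a change of -0.47, and of the 25 rapid stress genes 3 were called higher and 1 lower. Over all features 8.02% were called higher and 10.3% lower, so these few calls are not read as a result about the lists.

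LOX3 and most JAZ and rapid stress genes were high in the arrays labelled s35S control, and less so on some others. LOX3 read 11.03 on gox2 Cd 24 h replicate 1 and 11.19 and 11.07 on atgox control replicates 2 and 3, against 9.69 on atgox control replicate 1. The heat shock list was about as high on these others. Its mean relative level was 0.41 to 0.52 under s35S control and 0.48 on gox2 Cd 24 h replicate 1. It was 0.62 and 0.43 on atgox control replicates 2 and 3, against -0.19 on replicate 1. LOX3 averaged 11.83 ± 0.04 under the label s35S control and 9.82 ± 0.07 in WT control (SD, n = 3 each), a change of 2.01 ± 0.26 (SE, limma adjusted p = 5.46e-05). JAZ7 was 3.13 higher (10.89 to 11.42 and 7.92 to 8.08, limma adjusted p = 1.27e-07), RRTF1 3.70 higher (limma adjusted p = 3.89e-05) and HSFA2 1.58 higher (limma adjusted p = 0.00645). In this comparison 22 of the 25 rapid stress genes, 23 of the 27 heat shock genes, 8 of the 13 JAZ genes and 9 of the 18 JA biosynthesis genes were called higher, beside 20.3% of all features, and 1, 2 and 5 of the rapid stress, JAZ and JA biosynthesis genes were called lower, beside 29.8%. FRO2 was also higher there, by 0.82 (limma adjusted p = 0.000913), whereas BHLH38 changed by -0.76 (limma adjusted p = 0.00222) and CASP5 by -1.17 (limma adjusted p = 3.38e-05), and all 3 calls were lost over all 27 arrays. Over the whole set, 407 of the 1208 loci higher on the iron-high arrays were called higher and 380 lower, and of the 872 loci lower on them 223 were called higher and 352 lower.

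**Figure D4:**
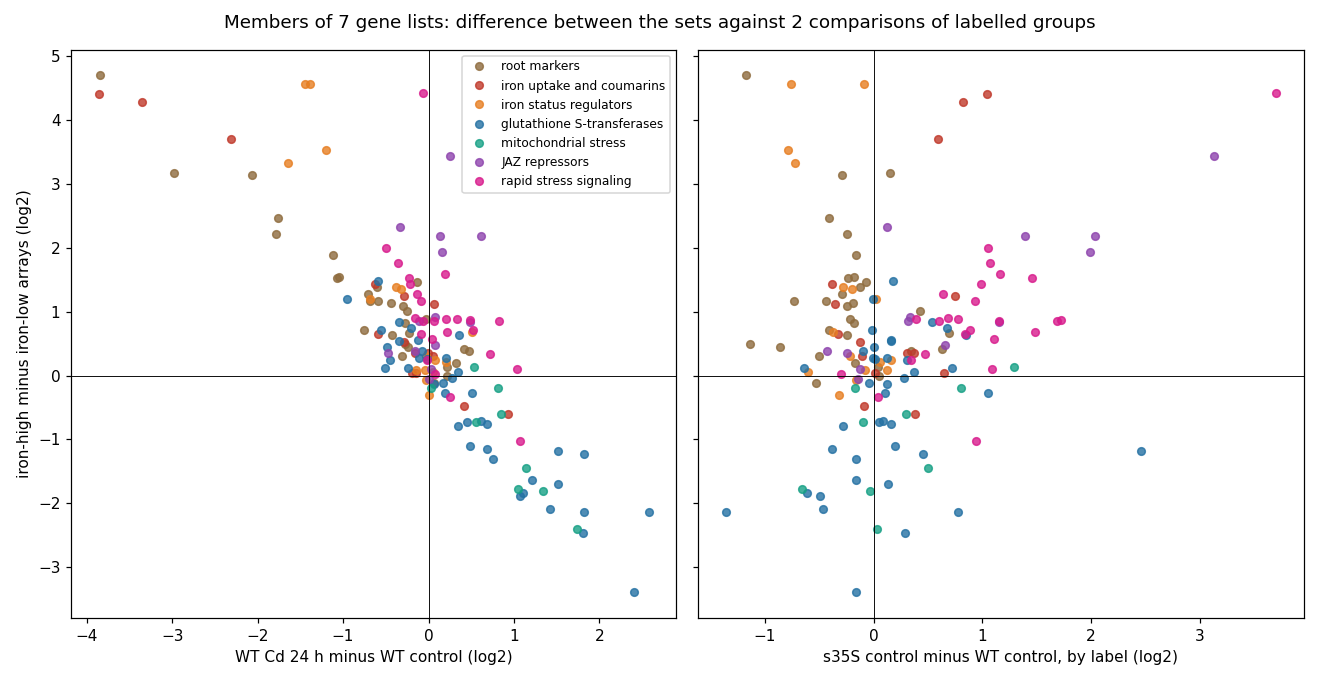
Difference between the iron-high and the iron-low arrays (vertical) against the log2 fold change of WT Cd 24 h over WT control (left) and of the arrays labelled s35S control over WT control (right), with a point for each gene of 7 lists. In the left panel FRO2 and CASP5 lie at -3.35 and -3.85 and GSTU25 at 2.58 while JAZ7 and RRTF1 lie near 0, and in the right panel JAZ7 and RRTF1 lie at 3.13 and 3.70; both panels use the same WT control arrays.

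In the arrays labelled gox2 Cd 30 min against those labelled WT Cd 30 min, 572 of the 1208 loci were called lower (47.4%) and 472 of the 872 loci higher (54.1%). Over all features 10.8% were called lower and 11.1% higher. FRO2 changed by -3.28 (limma adjusted p = 2.06e-08) and GSTU25 by 2.06 (limma adjusted p = 5.85e-09), and LOX3 by -0.11 (limma adjusted p = 0.79). In the arrays labelled WT Cd 30 min against WT control, 476 of the 1208 loci were called lower (39.4%) and 170 of the 872 loci higher (19.5%). Over all features 12.7% were called lower and 11.3% higher. FRO2 changed there by -0.17 (limma adjusted p = 0.497). In both comparisons slide and label cannot be told apart.

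The mean level of 3 lists is given beside the labelled arrays. The 9 mitochondrial stress genes had a mean relative level of -0.31 to -0.24 on the iron-high arrays, against 0.70 to 0.77 on the iron-low arrays, with 0.44 to 0.47 on WT Cd 24 h and -0.45 to -0.42 on WT control. The rapid stress list stood at 0.70 to 0.73 on the iron-high arrays, against -0.27 to -0.18 on the iron-low arrays, and also at 0.70 to 0.73 under the label s35S control, against -0.29 to -0.27 on WT control. Iron status regulators reached 0.71 to 0.77 on the iron-high arrays, above the 0.31 to 0.44 of WT control, and -0.65 to -0.55 on the iron-low arrays, below the -0.07 to 0.02 of WT Cd 24 h.

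**Figure D5:**
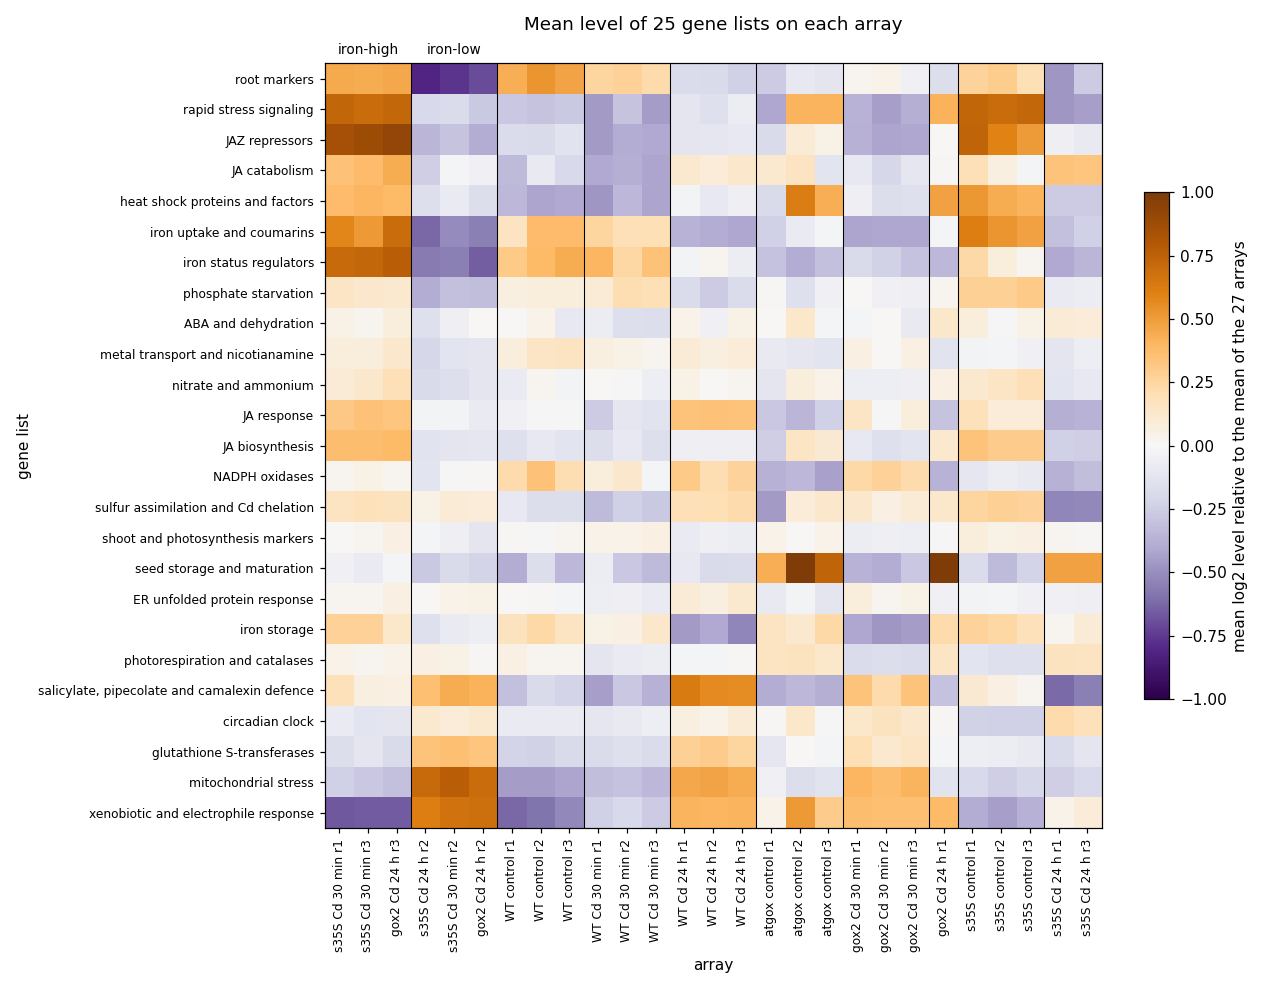
Mean log2 level of 25 gene lists (rows) on each of the 27 arrays (columns), relative to the mean of all arrays (orange high, purple low). The iron-high arrays are high for root markers (0.44 to 0.46), iron, JAZ and rapid stress genes, and the iron-low arrays are high for mitochondrial stress (0.70 to 0.77) and xenobiotic response genes.

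Set against the means of the 6 labels that hold none of these arrays, the iron-high mean lay nearest to WT control, with 476 loci at a difference of at least 1, of which 377 were higher on the iron-high arrays and 99 lower. It lay next to atgox control, with 634 loci, and differed from WT Cd 24 h at 1250. The iron-low mean lay nearest to WT Cd 24 h, with 245 loci, and then to the arrays labelled gox2 Cd 30 min, with 402, and it differed from WT control at 2012. Among these 6 labels both sets stood nearest to a WT label. Labels carried by the 6 arrays were left out of this count, so it cannot say whether the sets lay nearer to their own labels.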

How the data were processed

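RNA of 27 samples was hybridized to single-color Cy3 NimbleGen arrays. The deposited values are linear intensities, which the authors obtained by RMA (background correction, normalization and summary of probes) over 3 or 4 probe pairs for nearly all of 37118 features. The software version and genome build are not given in the sources used here, and limma is named in the submitters' processing notes with no role. No detection or background value was used, so precision is limited by the number of arrays.

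The intensities were converted to log2 and quantile-normalized, because array medians ranged over 0.15 (limit 0.1). The brightest feature stood for each of 32627 loci, of which 31993 matched the RefSeq gene table. Values set side by side compare arrays for one gene, never genes. The sets, gene lists (25, with 464 of 465 loci measured) and tests were chosen with earlier results of these data known. Named genes were the 3 markers, GOX2, the 12 largest non-overlapping differences in each direction, up to 4 members of each list, and root and shoot markers; other list members and the organelle genes were named after their values were seen.

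Labelled groups were compared with the linear model and empirical Bayes functions of limma 3.58.1 (R 4.3.3; labels were read with jsonlite 2.0.0) over 18 arrays, two-sided, with Benjamini-Hochberg adjustment over all features and a threshold of 0.05; the code was tested on simulated data. Replicates are described as independent pools. Alternatives were the deposited values without further normalization, the mean of features, a filter on dim features, other arrays in the fit, a replicate block and leaving out each array.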

Additional observations from a re-analysis of the deposited data

How the results depend on the processing

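The counts of loci at least 1 higher or lower between the sets stayed within 1.5 times of their values in all 26 recalculations, and leaving out each of the 6 arrays gave 1141 to 1249 and 837 to 904. Some of the 26 could not differ, since the series-level values equalled those of the single arrays. Using slide 3 alone was the same as leaving out gox2 Cd 24 h replicate 2. For the labelled comparisons, one mean per label over all 27 arrays gave 5579 calls for WT Cd 30 min against WT control (8892 over 18 arrays), 1194 for WT Cd 24 h (6818) and 2846 for gox2 Cd 30 min against WT Cd 30 min (8125). A log2 fold change of at least 1 left 1517, 908 and 799 of them, and 3261 for s35S control against WT control (18580). Leaving out a replicate gave 4719 (without WT Cd 30 min replicate 1) to 8792, 5019 to 5875, 5050 to 7813 and 14862 to 17419. For gox2 Cd 30 min against WT Cd 30 min the counts were 5408 and 5050 without gox2 Cd 30 min replicates 1 and 2 and 5195 without WT Cd 30 min replicate 1. Among loci that set the arrays apart, the 27-array fit, chosen for them after seeing the data, called 113 lower and 97 higher in WT Cd 24 h, and 205 higher and 118 lower in s35S control. Of the listed or named loci it kept 53 of 201 calls in WT Cd 24 h against WT control, among them FRO2, GSTU25, CYP82C4, TIP2;3, UGT74E2, DIN2, FER1, NEET, FMO1 and PBS3 but not IRT1, BHLH38, CASP5, AOX1A or CYP71A12, and 149 of 261 in s35S control, among them LOX3, JAZ7, RRTF1 and HSFA2 but not FRO2, BHLH38 or CASP5. The 27-array fit left the fold changes as they were (FRO2 at -3.35 in WT Cd 24 h, LOX3 at 2.01 in s35S control). Its spread was taken also from the labels that mix the sets, so kept and lost calls do not rank the changes. Leaving out 1 array ended 52 of the 201 and 64 of the 261 calls at least once, for causes that were not tested. The replicate numbers did not pair the arrays (r = -0.532 to 0.082), and with a replicate block the counts were 8624, 6593, 7787 and 18258 in the same order. With 3 arrays per group and no detection values, dim genes and small differences stay unresolved.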

Other observations

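The largest difference between the sets was at AT2G05040, a pseudogene on chromosome 2 in the RefSeq table, which was singled out after its values were seen. It read 10.44, 10.46 and 10.28 on the iron-high arrays, against 4.93, 5.11 and 4.79 on the iron-low arrays. The other arrays fell into the same 2 ranges, with 10.48 to 10.94 on the 6 arrays of WT control and WT Cd 24 h and 4.55 to 5.39 on the 15 arrays of all other labels, WT Cd 30 min included. No array lay between 5.39 and 10.28. GOX2 was high on the iron-low arrays (13.87 to 14.05), where AT2G05040 was low, and both were low on the arrays labelled WT Cd 30 min.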
